A study of Mus musculus with 3 samples.

Results

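Homologous recombination, the Fanconi anemia pathway and mismatch repair are represented here by 32 genes, taken by symbol from a gene table of RAW264.7 macrophages. All 32 were among its 26661 genes, and all 32 passed the filter of at least 1 FPKM (fragments scaled to transcript length and to library size) in at least 1 library, as did 12197 genes in all. RAW264.7 is a mouse macrophage line derived from a virus-induced tumour, and its cells divide in culture; the labels call its genotype WT and give lung as its tissue. The study made 3 poly(A) RNA-seq libraries. The first came from cells given 10 µM harmine, a plant beta-carboline that inhibits the kinase DYRK1A, for 0.5 h before 6 h with 0.5 µg/ml lipopolysaccharide (LPS, a bacterial glycolipid that activates toll-like receptor 4). The second came from cells that had only the same 6 h with LPS, and the third, the control, from cells in medium without either agent.

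Each group holds 1 library, so the differences given here have neither a replicate check nor a p-value, and they include whatever separates 1 culture from another. Harmine was not given without LPS in any of the 3. RAW264.7 is a single line in bulk culture, and fewer cells that express a gene cannot be told apart from less of its RNA per cell.

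Homologous recombination copies an intact sister chromatid to mend a broken or stalled replication fork, and is used mainly in S and G2 phase. BRCA1 with BARD1 starts it, PALB2 brings in BRCA2, and BRCA2 and a family of recombinase paralogs load the strand-exchange filament. The Fanconi pathway unhooks crosslinks that join the strands of DNA: a core ligase with the conjugating enzyme UBE2T attaches ubiquitin to FANCD2 and FANCI, and USP1 takes it off again. Mismatch repair corrects errors of the replication polymerases. Many genes of these pathways are known targets of E2F transcription factors, which drive genes of the G1/S transition in dividing cells.

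RefSeq promoter windows (GRCm38.p6, the assembly behind mm10) were matched for 26 of the 32 members and are given first. Each runs from 250 bases before to 50 after a transcript start. Whether E2F factors had a part in the differences between the libraries was not tested. The E2F-type letters TTTCCCGC, TTTCGCGC, TTTGGCGC and TTTGCCGC were sought on both strands. At least 1 of these was found for 6 of the 26 members (23.1%), against 704 of 27025 genes in the promoter table (2.60%) and 5.12% of the genes that passed the FPKM filter and had a window. In a list of other recombination and Fanconi genes, described after the members, it was 2 of 30 (6.67%). Among damage checkpoint genes the share was above that of the members, at 4 of 15 (26.7%). It was 1 of 10 (10%) for end joining and 0 of 14 for nucleotide excision repair. Among all genes 2-fold or more lower with LPS that had a window, 60 of 641 (9.36%) held the letters. The median GC content of the windows was 59.7% for members, 52.7% for the whole promoter table and 60.7% for the genes that passed the FPKM filter. For 5 of the 6 genes, the stretches that hold the letters are printed 5′ to 3′ on the strand of the gene, with the matched letters in capitals; a match on the opposite strand reads as its reverse complement.

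Msh6 (chr17:87975039-87975098, plus strand): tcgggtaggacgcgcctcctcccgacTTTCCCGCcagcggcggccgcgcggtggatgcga
Rad51c (chr11:87404462-87404521, minus strand): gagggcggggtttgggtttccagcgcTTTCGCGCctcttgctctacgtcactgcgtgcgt
Fancg (chr4:43010320-43010379, minus strand): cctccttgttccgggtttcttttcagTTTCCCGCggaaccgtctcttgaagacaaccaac
Bard1 (chr1:71103148-71103207, minus strand): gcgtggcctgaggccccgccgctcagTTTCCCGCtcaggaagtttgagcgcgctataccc
Brca2 (chr5:150522427-150522486, plus strand): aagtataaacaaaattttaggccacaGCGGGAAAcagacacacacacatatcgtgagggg

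The position relative to the start differed among the genes shown. The letters lay 209 bases before the start of Bard1, 168 before that of Brca2 and 52 before that of Fancg, but 12 bases after the start of the shown Rad51c transcript and 16 after that of Msh6. A second annotated start of Rad51c also had a match.

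Of the 8 members that stood 2-fold or more lower with LPS on the log2(FPKM + 1) scale, 6 had a window and 2 of these held the letters (Rad51c and Msh6), against 4 of 20 other members with a window. The largest difference of all members was that of Fanci, and its window, printed for contrast, held none of them.

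Fanci (chr7:79392088-79392387, plus strand): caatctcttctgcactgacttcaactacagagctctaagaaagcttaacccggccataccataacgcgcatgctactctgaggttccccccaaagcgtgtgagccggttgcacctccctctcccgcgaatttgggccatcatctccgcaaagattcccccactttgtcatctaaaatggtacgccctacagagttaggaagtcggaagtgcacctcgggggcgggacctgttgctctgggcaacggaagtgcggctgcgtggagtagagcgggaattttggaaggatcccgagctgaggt

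Letters known from promoters of mitotic genes were counted in the same windows. The cell cycle homology region, sought as TTTGAA or TTCGAA on both strands, was present for 3 of the 26 members (11.5%), against 21.7% of the promoter table. In a list of mitosis genes it was present for 13 of 17 (76.5%). CCAAT, on both strands, was found for 17 of 26 members (65.4%), against 41.1% of the table. In the list of mitosis genes it was found for 15 of 17 (88.2%), and in that of replication genes for 16 of 24 (66.7%). E2F-type letters were most frequent in the list of replication genes, at 12 of 24 (50%).

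In absolute terms most members were weakly expressed. The member levels ran from 0.867 to 34.1 FPKM with harmine plus LPS, from 0.471 to 30.0 FPKM with LPS and from 1.34 to 51.4 FPKM in control, with medians of 3.13, 1.97 and 4.76 FPKM. Usp1 and Msh6 were the highest in every library. Only 4 members reached 5 FPKM with LPS, against 14 in control. Deposited counts per member lay between 107 (Rad51b with LPS) and 12724 (Usp1 in control), with every 4 counts treated as 1 read pair, a reading of the values rather than a stated fact.

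**Figure D1:**
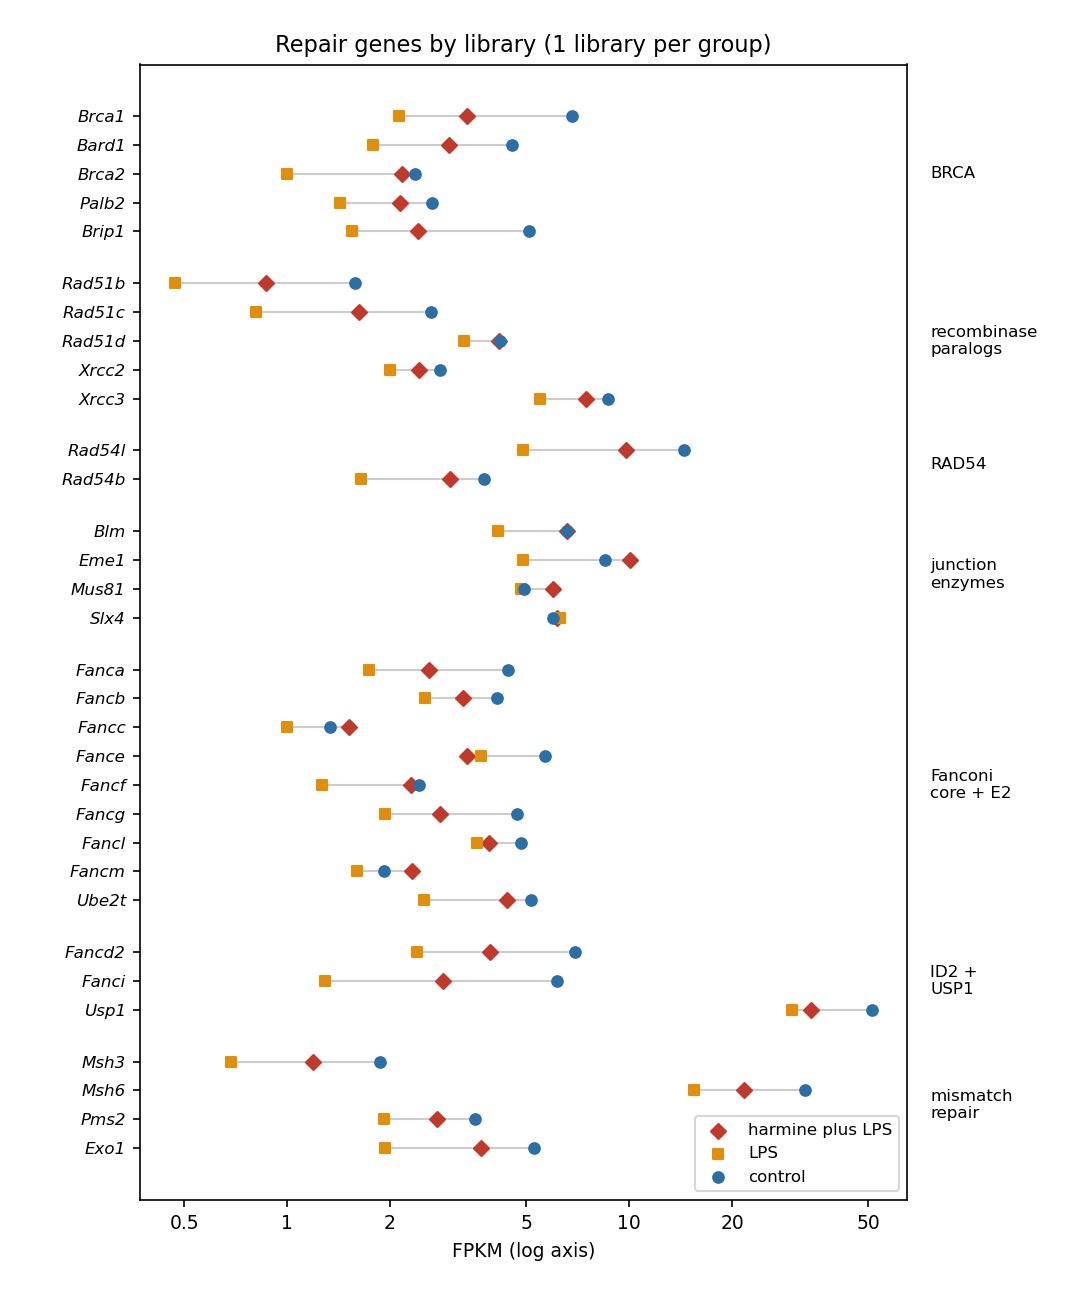
FPKM (log axis) of the 32 repair genes in the 3 libraries, grouped by role; each symbol is 1 library and the grey line joins the lowest and highest value of a gene. The LPS symbol is leftmost for most genes, while Slx4 and Mus81 have LPS and control side by side and Eme1, Mus81, Fancc and Fancm have harmine plus LPS on the right.

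The first comparison asked how 6 h of LPS changed these transcripts. The repair genes were lower with LPS almost throughout: 31 of 32 lay below control, against 60.1% of all genes that passed the filter. Slx4 alone lay above control, by 0.06 log2, though Mus81 lay above control by 0.01 to 0.10 log2 under the 3 rescalings of the libraries. The median member was at 50.5% of its control FPKM, beside 89.2% for the genes that passed the filter and had a control value above 0. On the log2(FPKM + 1) scale, which understates differences of low genes, the median was -0.75 for members and -0.13 for all genes. All counts at 2-fold and 1.5-fold are on that scale, also where plain FPKM ratios stand beside them. So counted, 8 of 32 members stood 2-fold or more lower, against 7.21% of all genes, and none stood 2-fold or more higher, against 5.79%. At 1.5-fold, 21 of 32 were lower, against 19.3% of all genes. The 2-fold count rested on the pseudocount: it was 16 with 0.1 FPKM added in place of 1, against 12.2% of all genes, and 0 with 5 FPKM added, against 2.39%.

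The 8 genes were Brca1, Brip1, Rad51c, Rad54l, Fancd2, Fanci, Msh6 and Exo1, so that each of the 3 pathways was represented. Of these, Brca1, Brip1, Fancd2, Fanci and Rad54l also passed 2-fold under every rescaling of the libraries that was tried, whereas Msh6 and Rad51c dropped out under median-of-ratios rescaling and those 2 and Exo1 under upper-quartile rescaling. Bard1 and Fanca lay just short of the threshold, at -0.995 and -0.990 log2. The range in brackets after a fold below is its exact 95% binomial interval from the split of read pairs between the 2 libraries, and covers counting error only. That interval excluded a ratio of 1 for 30 members with LPS against control, all lower, and held 1 for Mus81 and Slx4; over all genes that passed the filter it excluded 1 for 70.2%.

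The second comparison set cells given harmine before LPS beside cells given LPS alone. Most members were higher with harmine plus LPS than with LPS alone: 30 of 32 lay above LPS, against 65.6% of all genes. The 2 below LPS were Fance and Slx4, joined by Fancl after median-of-ratios and upper-quartile rescaling (-0.02 log2 under both). The median was 0.39 log2 for members and 0.10 log2 for all genes. On the log2(FPKM + 1) scale no member stood 2-fold or more higher or lower, against 0.664% and 0.935% of all genes, although the plain FPKM ratios of Fanci (2.21), Brca2 (2.16) and Eme1 (2.06) exceeded 2. At 1.5-fold, 7 of 32 were higher, against 5.30% of all genes, and none lower, against 3.35%. These 7 were Brca2, Rad54l, Rad54b, Eme1, Ube2t, Fanci and Exo1.

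This count rested on the pseudocount and on the scaling between the libraries. It was 16 with a pseudocount of 0.1 FPKM, against 10.7% of all genes, and 1 with 5 FPKM, against 1.02%. After median-of-ratios rescaling the median of all genes in this comparison was -0.02 log2, and 3 of 32 members stood 1.5-fold or more higher (Eme1, Fanci and Rad54l), against 2.89% of all genes. Upper-quartile rescaling left the same 3, against 2.95%.

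In the third comparison, of harmine plus LPS with control, the members lay nearer to control but mostly still under it. The median member was at 78.4% of its control FPKM, beside 98.5% for all genes. On the log2(FPKM + 1) scale none passed 2-fold in either direction, against 4.86% lower and 5.14% higher among all genes. In plain FPKM, 3 members (Brca1, Brip1 and Fanci) were at or under 50% of control. So were 1026 of the genes that passed the filter and had a control value above 0 (12197 passed in all). The counting interval of each of the 3 member ratios held 0.5. At 1.5-fold, 6 members were lower, against 13.5% of all genes, and none higher, against 12.3%. The 6, Brca1, Brip1, Fanca, Fance, Fancd2 and Fanci, are 18.8% of the members, a share near that of all genes. The count was 13 with a pseudocount of 0.1 FPKM (17.5% of all genes), 0 with 5 FPKM (6.19%) and 10 after median-of-ratios rescaling (16.4%). All 3 comparisons draw on the same 3 libraries, so they are not independent of each other.

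**Figure D2:**
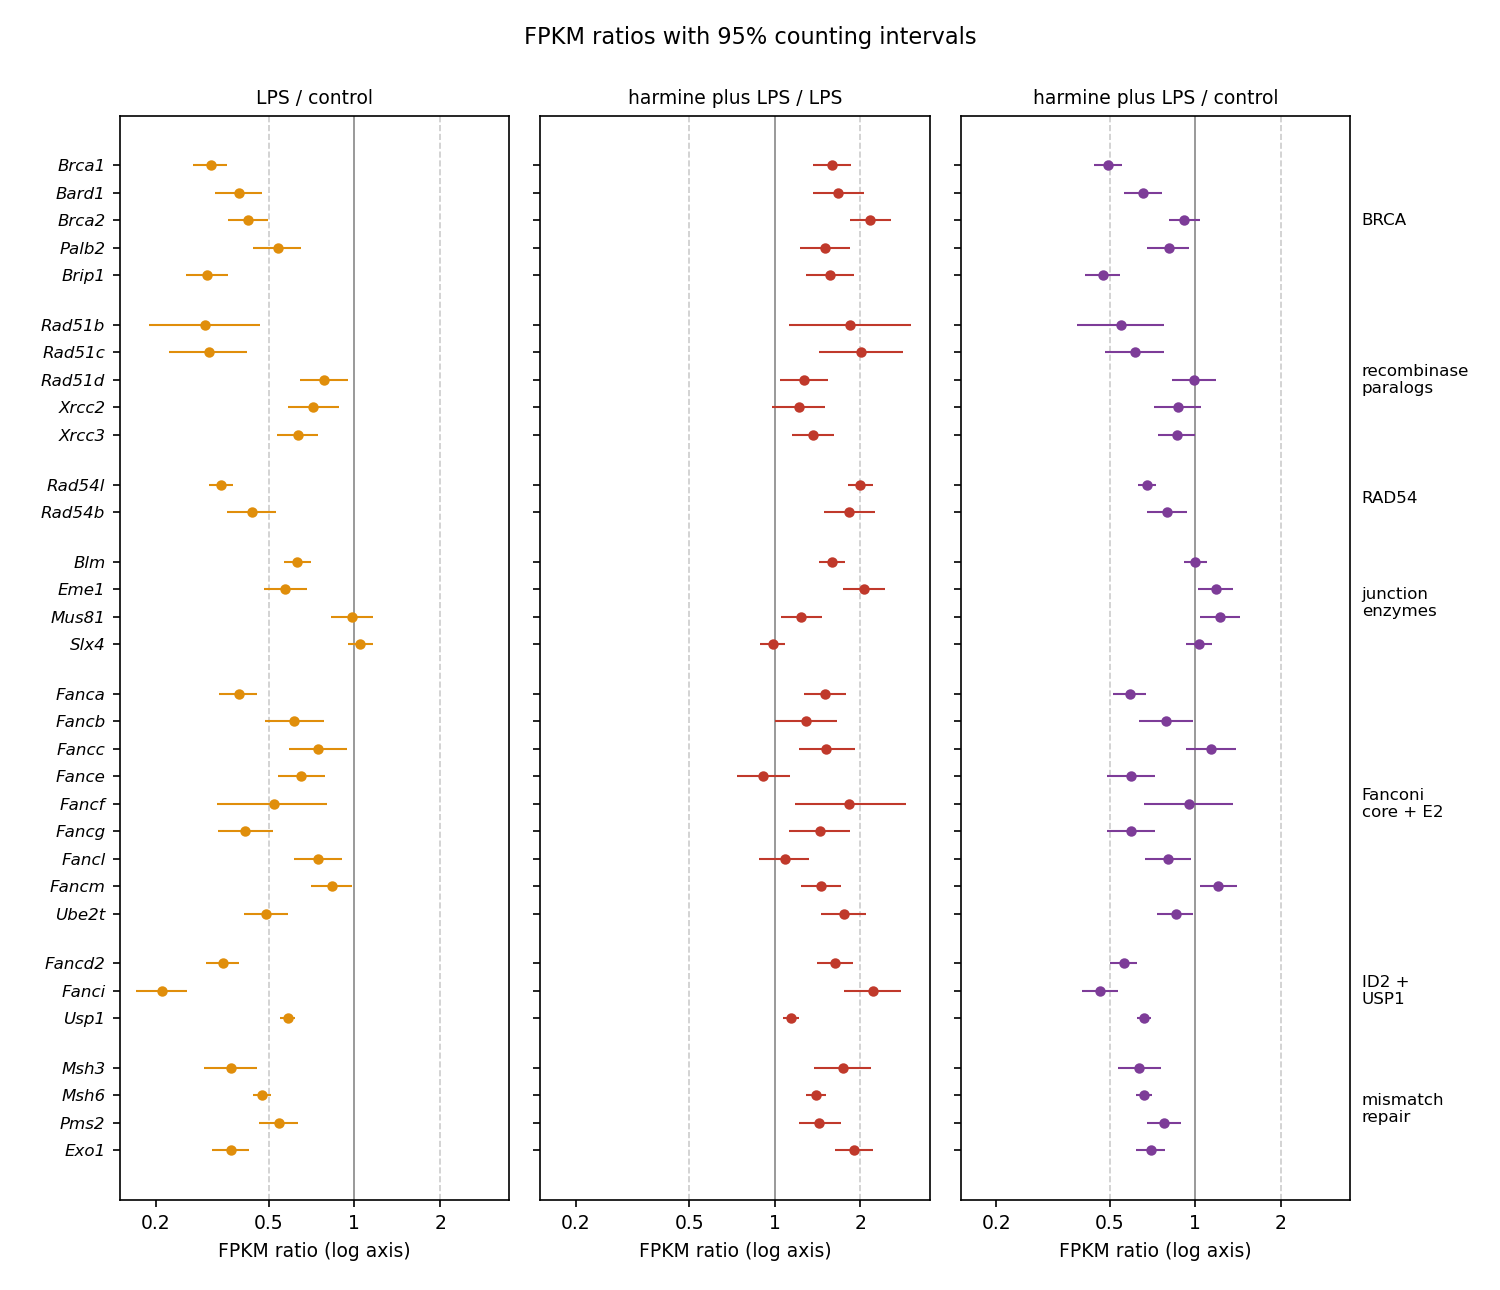
FPKM ratio of LPS to control, harmine plus LPS to LPS and harmine plus LPS to control (log axis) for each of the 32 repair genes; points are ratios of 1 library to 1 library and bars are 95% counting intervals, with dashed lines at 2-fold. LPS to control runs from 0.210 for Fanci to 1.05 for Slx4, and harmine plus LPS to LPS from 0.912 for Fance to 2.21 for Fanci.

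The BRCA proteins start recombination and bring the recombinase to resected DNA, and all 5 genes of this group stood 1.5-fold or more lower with LPS. Brca1 (chromosome 11, 101488764 to 101551955), the tumour suppressor that licenses resection and forms a ubiquitin ligase with BARD1, stood at 3.37 FPKM with harmine plus LPS and 2.12 FPKM with LPS, against 6.81 FPKM in control. It was 3.20-fold (2.80 to 3.68) lower with LPS than in control and 1.58-fold (1.36 to 1.85) higher with harmine plus LPS than with LPS. Brip1 (chromosome 11, 86058138 to 86201193), a helicase that binds BRCA1, was at 2.42 FPKM with harmine plus LPS, 1.55 FPKM with LPS and 5.11 FPKM in control. With harmine plus LPS, Brca1 was at 49.4% of control (interval of the ratio 0.442 to 0.553) and Brip1 at 47.4% (0.411 to 0.546). Both intervals hold 0.5.

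The partner Bard1 (chromosome 1, 71027498 to 71103146) was at 2.98 FPKM with harmine plus LPS, 1.78 FPKM with LPS and 4.55 FPKM in control. Brca2 (chromosome 5, 150522630 to 150570329), the loader of the recombinase, differed from these in how near it came to control: it stood at 2.17 FPKM with harmine plus LPS and 1.002 FPKM with LPS, against 2.37 FPKM in control. Its harmine plus LPS value was 2.16-fold (1.83 to 2.56) that of LPS and 91.7% of that of control. Palb2, which joins BRCA2 to BRCA1, was the member of this group least lowered by LPS, at 2.14 FPKM with harmine plus LPS, 1.43 FPKM with LPS and 2.65 FPKM in control.

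The recombinase paralogs, which form small complexes that stabilise the strand-exchange filament, were split. Rad51b and Rad51c lay far below control with LPS, and Rad51d, Xrcc2 and Xrcc3 much less so. Rad51c (chromosome 11, 87376645 to 87404523) stood at 1.62 FPKM with harmine plus LPS and 0.809 FPKM with LPS, against 2.64 FPKM in control, 3.26-fold (2.39 to 4.48) lower with LPS. Rad51b was at 0.867 FPKM with harmine plus LPS, 0.471 FPKM with LPS and 1.58 FPKM in control, 3.35-fold (2.14 to 5.27) lower with LPS, with the fewest counts of any member. Its interval is correspondingly wide.

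Rad51d (chromosome 11, 82876434 to 82890614) had the smallest LPS difference of the paralogs, at 4.16 FPKM with harmine plus LPS, 3.29 FPKM with LPS and 4.20 FPKM in control, 1.28-fold (1.05 to 1.55) lower with LPS. Xrcc2 was at 2.43, 2.00 and 2.79 FPKM with harmine plus LPS, with LPS and in control. Xrcc3, the most abundant paralog, was at 7.47, 5.48 and 8.68 FPKM in the same libraries. The intervals of the LPS ratio of Rad51b and Rad51c did not reach those of the other 3 paralogs.

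Rad54l (chromosome 4, 116094264 to 116123690), a motor protein that remodels chromatin and DNA during strand exchange, had the highest FPKM of the recombination members in control. It stood at 9.79 FPKM with harmine plus LPS and 4.90 FPKM with LPS, against 14.4 FPKM in control. It was 2.95-fold (2.68 to 3.24) lower with LPS and then 2.00-fold (1.81 to 2.21) higher with harmine plus LPS than with LPS. The related Rad54b was lower in level, at 2.99 FPKM with harmine plus LPS, 1.64 FPKM with LPS and 3.76 FPKM in control, and also past 1.5-fold in both comparisons. Rad54l overlaps Lrrc41 on the opposite strand, which stood higher with LPS (31.1 FPKM) than in control (17.2 FPKM).

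The enzymes that dissolve or cut recombination junctions differed most among themselves. Slx4 (chromosome 16, 3979105 to 4003752), the scaffold that assembles structure-specific nucleases, stood at 6.17 FPKM with harmine plus LPS, 6.27 FPKM with LPS and 5.98 FPKM in control. Mus81 (chromosome 19, 5482345 to 5488402), a nuclease held by that scaffold, stood at 5.99 FPKM with harmine plus LPS, 4.84 FPKM with LPS and 4.92 FPKM in control. The LPS ratio of neither could be told from 1 at this depth: Slx4 was at 105% of control (interval of the ratio 0.947 to 1.16) and Mus81 at 98.4% (0.829 to 1.17).

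Eme1 (chromosome 11, 94644996 to 94653964), the partner subunit of MUS81, was not level with it. It stood at 10.1 FPKM with harmine plus LPS and 4.88 FPKM with LPS, against 8.53 FPKM in control, 1.75-fold (1.47 to 2.08) lower with LPS. Its harmine plus LPS value was 2.06-fold (1.74 to 2.44) that of LPS and 118% of that of control, a difference of 0.91 from LPS in log2(FPKM + 1). Blm, the helicase that dissolves Holliday junctions, was at 6.57 FPKM with harmine plus LPS and 4.14 FPKM with LPS, against 6.56 FPKM in control.

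In the Fanconi core complex, which ubiquitinates FANCD2 and FANCI at stalled forks, no gene stood 2-fold lower with LPS on the log2(FPKM + 1) scale, and 4 of the 9 counted with UBE2T stood 1.5-fold lower. These were Fanca, Fancf, Fancg and Ube2t, with plain FPKM ratios of 2.55-fold, 1.92-fold, 2.42-fold and 2.05-fold lower. Fanca (chromosome 8, 123268300 to 123318576) stood at 2.61 FPKM with harmine plus LPS and 1.73 FPKM with LPS, against 4.43 FPKM in control. Fancg, which binds FANCA, was at 2.80 FPKM with harmine plus LPS, 1.94 FPKM with LPS and 4.69 FPKM in control. Ube2t, the E2 of the pathway, stood at 4.39 FPKM with harmine plus LPS and 2.51 FPKM with LPS, against 5.15 FPKM in control, and Fancf at 2.30, 1.27 and 2.42 FPKM in the same order of libraries.

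The catalytic and scaffold parts of the core lay nearer to control than FANCA and FANCG. Fancl, the ubiquitin ligase itself, stood at 3.89 FPKM with harmine plus LPS, 3.60 FPKM with LPS and 4.83 FPKM in control. Fancm (chromosome 12, 65075603 to 65132058), the translocase that anchors the complex to chromatin, stood at 2.32 FPKM with harmine plus LPS, 1.60 FPKM with LPS and 1.92 FPKM in control, 1.20-fold (1.02 to 1.42) lower with LPS and the smallest difference of the core. Fancc was at 1.52 FPKM with harmine plus LPS, 0.998 FPKM with LPS and 1.34 FPKM in control. With harmine plus LPS both were above control, Fancm at a ratio of 1.21 (1.04 to 1.40) and Fancc at 1.13 (0.926 to 1.39), an interval that holds 1.

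Fancb, on the X chromosome, stood at 3.26 FPKM with harmine plus LPS, 2.54 FPKM with LPS and 4.12 FPKM in control. Fance, which links the core to FANCD2, was the exception of this complex in the harmine comparison. It stood at 3.36 FPKM with harmine plus LPS and 3.69 FPKM with LPS, against 5.66 FPKM in control. The ratio of harmine plus LPS to LPS was 0.912 (0.738 to 1.13), an interval that holds 1, and its harmine plus LPS value was 59.4% of that of control.

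The substrates of the core showed some of the largest differences. Fanci (chromosome 7, 79391929 to 79450264) stood at 2.86 FPKM with harmine plus LPS and 1.29 FPKM with LPS, against 6.17 FPKM in control. It was 4.76-fold (3.88 to 5.87) lower with LPS than in control, and 2.21-fold (1.76 to 2.77) higher with harmine plus LPS than with LPS. At 46.3% of control it remained the lowest of the 32 with harmine plus LPS. Fancd2 (chromosome 6, 113531682 to 113597017), its partner in the clamp, stood at 3.91 FPKM with harmine plus LPS and 2.40 FPKM with LPS, against 6.97 FPKM in control, 2.90-fold (2.54 to 3.32) lower with LPS.

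Usp1 (chromosome 4, 98923810 to 98935543), which removes ubiquitin from this clamp, was far more abundant than its substrates and differed less. It stood at 34.1 FPKM with harmine plus LPS and 30.0 FPKM with LPS, against 51.4 FPKM in control, 1.71-fold (1.62 to 1.82) lower with LPS. Harmine plus LPS exceeded LPS by only 1.14-fold (1.06 to 1.21).

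All 4 mismatch repair genes stood 1.5-fold or more lower with LPS on the log2(FPKM + 1) scale, and Msh6 and Exo1 2-fold or more; the folds given for single genes are plain FPKM ratios. Msh6 (chromosome 17, 87975062 to 87990892), which recognises base mismatches, stood at 21.6 FPKM with harmine plus LPS and 15.5 FPKM with LPS, against 32.8 FPKM in control, 2.11-fold (1.96 to 2.27) lower with LPS. Exo1 (chromosome 1, 175880581 to 175913489), the exonuclease that removes the faulty strand and also resects broken ends, stood at 3.68 FPKM with harmine plus LPS and 1.94 FPKM with LPS, against 5.28 FPKM in control. It was 2.72-fold (2.35 to 3.16) lower with LPS and 1.90-fold (1.63 to 2.22) higher with harmine plus LPS than with LPS.

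Msh3, which recognises larger loops, stood at 1.19 FPKM with harmine plus LPS, 0.687 FPKM with LPS and 1.87 FPKM in control. It was 2.72-fold (2.19 to 3.37) lower with LPS than in control and 1.73-fold (1.37 to 2.18) higher with harmine plus LPS than with LPS. Pms2, a nicking endonuclease subunit of mismatch repair, had the smallest difference of the 4, at 2.75 FPKM with harmine plus LPS, 1.92 FPKM with LPS and 3.54 FPKM in control.

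**Figure D3:**
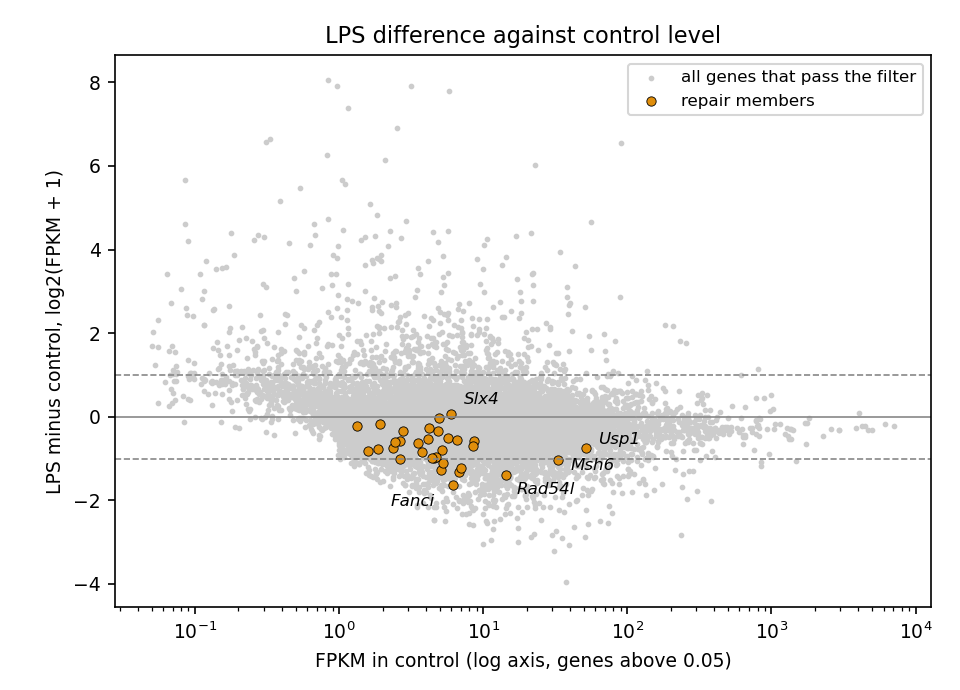
Difference of log2(FPKM + 1), LPS minus control, against the control FPKM (log axis) for the genes above 0.05 FPKM in control that passed the filter (grey) and the 32 repair genes (orange), with dashed lines at 2-fold. The repair genes lie between -1.64 for Fanci and 0.06 for Slx4, over control levels of 1.34 to 51.4 FPKM.

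Other genes of the same pathways, from a list of 36 outside the members, had 5 of 35 that passed the filter 2-fold or more lower with LPS and 1 higher, with a median of -0.43 log2. Slx1b, the nuclease partner of SLX4, had the largest absolute difference in log2(FPKM + 1), at 1.02 FPKM with harmine plus LPS, 0.337 FPKM with LPS and 2.59 FPKM in control. Ercc1, a nuclease subunit shared with nucleotide excision repair, was the one that stood higher, at 8.70 FPKM with harmine plus LPS and 10.2 FPKM with LPS, against 3.19 FPKM in control; it overlaps Cd3eap on the opposite strand, which was at 11.4 FPKM with LPS and 13.9 FPKM in control. Rad51ap1, a cofactor of the recombinase, was at 4.74 FPKM with harmine plus LPS, 2.46 FPKM with LPS and 7.03 FPKM in control. In harmine plus LPS against LPS, 7 of these 35 stood 1.5-fold or more higher and none lower, with a median of 0.35 log2.

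Beside the members, replication and mitosis genes had medians further below control. The lists of end-joining and nucleotide excision repair genes used here had medians near that of all genes. Of 30 replication origin and fork genes, 18 stood 2-fold or more lower with LPS (median -1.11 log2), and of 20 mitosis genes 9 (median -0.93 log2), none higher in either list. Of 18 damage checkpoint genes, 4 stood lower and none higher (median -0.49 log2), led by Wee1, a kinase that holds back mitosis, at 6.99 FPKM with harmine plus LPS, 3.41 FPKM with LPS and 12.4 FPKM in control. Of 12 end-joining genes, none stood 2-fold lower and 1 higher (median -0.04 log2), namely the polymerase Polm, at 4.97 FPKM with harmine plus LPS, 7.53 FPKM with LPS and 2.86 FPKM in control. The KEGG term of end joining in the deposited annotation, looked up after the values were seen, had a lower median, -0.38 log2. Of its 12 genes, 4 stood 1.5-fold or more lower and 1 higher, against 19.3% and 11.7% of all genes.

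Of 18 nucleotide excision repair genes, 1 stood 2-fold lower, Ddb2, which recognises ultraviolet damage, at 1.91 FPKM with harmine plus LPS, 0.923 FPKM with LPS and 3.71 FPKM in control; none stood higher (median -0.15 log2, beside -0.13 log2 for all genes). The larger KEGG term of that pathway in the deposited annotation, looked up after the values were seen, had 11 of 43 genes 2-fold lower and 1 higher (median -0.23 log2). In harmine plus LPS against LPS the medians were 0.56 log2 for replication, 0.52 for mitosis, 0.41 for checkpoint, 0.17 for nucleotide excision and 0.04 for end joining, beside 0.39 for the members. These medians describe the 3 libraries, and no difference between lists was tested.

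**Figure D4:**
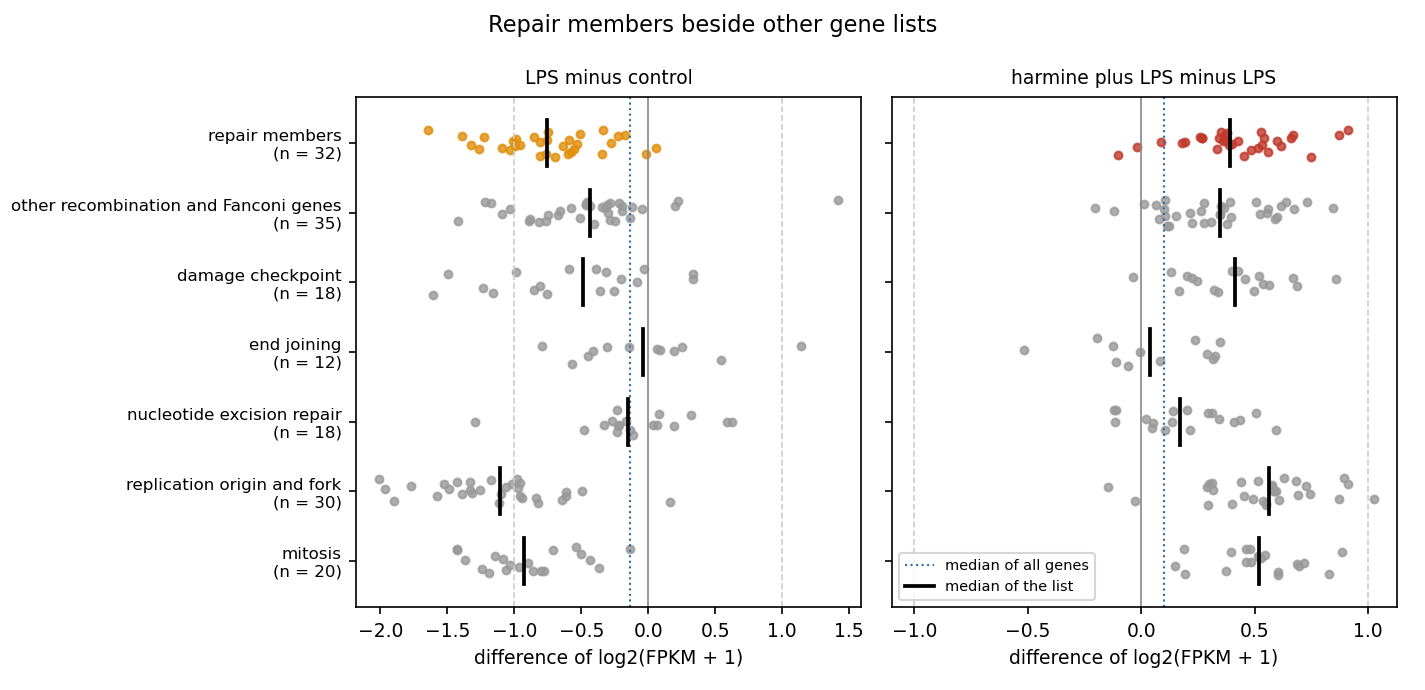
Difference of log2(FPKM + 1) for each gene of the repair members and 6 other lists, LPS minus control at left and harmine plus LPS minus LPS at right; black bars are list medians, the dotted line is the median of all genes and the dashed lines mark 2-fold. With LPS the members have a median of -0.75, between replication at -1.11 and end joining at -0.04.

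The proliferation markers were also lowest in the LPS library. Mki67, present in cycling cells, was at 57.8 FPKM with harmine plus LPS and 30.8 FPKM with LPS, against 84.5 FPKM in control, and Pcna, the sliding clamp of replication, at 93.8 FPKM with harmine plus LPS and 76.5 FPKM with LPS, against 151 FPKM in control. Their part in the repair gene differences was not tested.

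The libraries held 52845589 to 58169999 deposited counts. Macrophage markers were present: 10 of 12 reached 1 FPKM with harmine plus LPS, 10 with LPS and 11 in control, and their summed FPKM was 1729, 2183 and 2431 in these libraries. Markers of other cell types also differed between the libraries, and not all in the same direction. The epithelial marker Krt8 was at 10.55 FPKM with harmine plus LPS, 8.09 FPKM with LPS and 2.61 FPKM in control, above the member median in the first 2. The 7 epithelial markers found in the table summed to 25.8 FPKM with harmine plus LPS and 18.8 FPKM with LPS, against 6.29 FPKM in control, with the lung genes Sftpb and Ager under 1 FPKM in every library. The 7 fibroblast markers summed to 9.57, 9.60 and 1.37 FPKM in the same libraries, and the T cell markers to 2.19, 2.73 and 0.445 FPKM, most of it from Lck. The neutrophil markers went the other way, with sums of 0.981, 1.28 and 2.39 FPKM in these libraries. Endothelial and B cell markers all stayed under 1 FPKM, and 5 of 6 neutrophil markers did. Their part in the differences above was not tested. Another gene of the table overlapped 20 of the 32 members, and for 12 it reached 1 FPKM; the strand setting of the counting was not given in the sources used here, so values of these members may include reads of the neighbour.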

How the data were processed

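The deposited gene table holds, per the file headers, FPKM values scaled by the authors to transcript length and library size, and whole-number estimated counts, not normalized. Among the tools, the submitters' processing notes list StringTie 2.1.6, HISAT2 2.2.1, cutadapt 1.9, edgeR and DESeq2, with the build mm10; their roles were not given in the sources used here. More genes had a count of 4 than of 3 in every library (994 and 619 with harmine plus LPS, 1096 and 573 with LPS, 1072 and 566 in control), so counting intervals treat 4 deposited counts as 1 read pair.

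From these values, differences of log2(FPKM + 1), plain FPKM ratios and exact 95% binomial intervals of read pairs were computed (Python 3.11.15, pandas 2.3.3, scipy 1.17.1) on the whole table, and the calculation was tested on simulated data. The comparison kept genes that reached 1 FPKM in any library, with calls at 2-fold and 1.5-fold. With 1 library per group no model was fitted. All members were named; in each other list, up to 3 genes with the largest absolute LPS difference, plus Mki67 and Pcna. Alternatives were 2 other pseudocounts, 3 rescalings, a stricter filter and no filter. Members and lists were chosen with earlier results of these data known. Gene positions come from the deposited table (mm10); all 32 members had the same start in GENCODE M21. Part of the sequence results is not reported here.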

Additional observations from a re-analysis of the deposited data

How the results depend on the processing

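No paired analysis was possible because each group holds 1 library, and no library could be left out. The values depended most on the pseudocount, as most members were under 5 FPKM. With a pseudocount of 0.1 FPKM, 16 members (12.2% of all genes) stood 2-fold or more lower with LPS than in control, 3 stood 2-fold (2.87%) and 16 stood 1.5-fold (10.7%) or more higher with harmine plus LPS than with LPS, and harmine plus LPS lay 2-fold under control for 2 members (7.99%) and 1.5-fold under it for 13 (17.5%). With 5 FPKM these became 0 and 7 (2-fold and 1.5-fold lower with LPS, 2.39% and 8.89% of all genes, median -0.36 log2), 1 (1.5-fold higher with harmine plus LPS than with LPS, 1.02%) and 0 (1.5-fold lower with harmine plus LPS than in control, 6.19%). Requiring 5 FPKM in 1 library left 15 members, of which 10 were 1.5-fold lower with LPS (20.3% of all genes), and a median of -0.52 log2 for harmine plus LPS against control. Of the members, 14 reached 5 FPKM in control and 4 with LPS, so this filter kept mostly members that were high in control. Such a choice favours values below control, and neither result is a separate check. Median-of-ratios rescaling gave 3 members (2.89% of all genes) 1.5-fold higher with harmine plus LPS than with LPS and 10 (16.4%) lower than control; upper-quartile rescaling gave 5 (5.56%) that were 2-fold lower with LPS and 3 (2.95%) that were 1.5-fold higher with harmine plus LPS than with LPS. Rescaling to TPM, which enlarges values beside a fixed pseudocount, gave 14 (9.21%) that were 2-fold lower with LPS, 12 (9.74%) that were 1.5-fold higher with harmine plus LPS than with LPS and 1 (6.29%) that was 2-fold lower with harmine plus LPS than in control. No median over the members changed sign under the 7 alternatives, and no single member's difference of 1.5-fold or more did. For single members this could not have come out otherwise. Another pseudocount keeps the sign of a difference, and a change of filter leaves the difference as it was. The rescaling factors differed between libraries by less than 1.5-fold, too little to reverse such a difference. Another pseudocount could not reverse the medians either, as most members lay on the same side. The unchanged signs of single members are therefore no check on the results. Of 621 single-gene values under alternatives, 62 moved by more than counting error. The 621 include values under the stricter filter and under no filter, which only change which genes are kept. Those values could not move, so the share that moved understates the dependence on pseudocount and rescaling.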

Other observations

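The deposited table also carries KEGG pathway terms, and these were read after the member values were seen. Of 24 genes annotated to homologous recombination that are not among the 32 members, 4 stood 2-fold or more lower with LPS than in control and none higher, with a median of -0.62 log2. Of 26 such genes of the Fanconi anemia pathway, 5 stood lower and 1 higher (median -0.43 log2). The mismatch repair term holds replication factors besides the recognition proteins, and of its 18 genes outside the members 9 stood lower and none higher (median -1.02 log2). With harmine plus LPS against LPS, 6 of the 24, 4 of the 26 and 4 of the 18 stood 1.5-fold or more higher and none lower.

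The base excision repair term had 9 of 33 genes 2-fold or more lower with LPS (median -0.66 log2), the nucleotide excision repair term 11 of 43 with 1 higher (median -0.23 log2), and the DNA replication term 17 of 35 (median -0.98 log2). The end-joining term had none of 12 lower and 1 higher, with a median of -0.38 log2, below that of the end-joining list (-0.04 log2). Replication genes are annotated to several of these terms, so the counts overlap.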
